A study of Lytechinus variegatus with 8 samples.

Results

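Fibropellins, hyalin and echinonectin are proteins of the extracellular matrix that covers the outer, apical face of epithelia in sea urchins. Fibropellins carry rows of EGF repeats and a carboxy-terminal domain related to avidin, and they build the fibrous apical lamina of the embryo. Hyalin, a large protein made of HYR repeats, is the main protein of the embryonic hyaline layer, and echinonectin is a lectin of the same layer to which embryonic cells attach. These roles are known from sea urchin embryos. The values below are transcript levels in adult spines, which are calcite rods covered by a living epidermis.

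RNA sequencing libraries of spines of the sea urchin Lytechinus variegatus were examined for the genes with these names. There were 8 libraries, 4 of primary spines and 4 of secondary spines, from 4 wild-caught animals of the white-and-green color morph labelled wild type. Each primary library held 50 spines and each secondary library 100 spines of 1 animal, so a library is a pool of spines, and no treatment separated the groups. The labels do not state the ages or sexes of the animals.

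Members were chosen by product name in the deposited table, taking names with fibropellin, hyalin, echinonectin, apical extracellular matrix or nectin-like extracellular, and leaving out hyaline-, hyaluron and notch names. This rule found 102 of 26814 genes. They comprised 53 fibropellin-named genes, of which 45 were fibropellin-1-like and 6 fibropellin-3-like, 24 hyalin-named genes, 1 echinonectin and 24 trichohyalin-like genes. Trichohyalin is a protein of mammalian hair follicles whose name contains the searched word, and none of the 24 trichohyalin-like genes listed an avidin, HYR, EGF, DSL, CUB or SEA domain or a Swiss-Prot match to hyalin or fibropellin. The label of an apical matrix family therefore fitted 78 of the 102 genes by name, and the trichohyalin-like genes are described separately at the end. No gene carried the names apical extracellular matrix or nectin-like extracellular.

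Domains in the deposited table divided the 78 genes further. All 24 hyalin-named genes listed the HYR domain, 55 of the 78 listed EGF repeats, and 7 listed DSL, a domain of Notch ligands. The avidin domain was listed for 9 genes of the whole table, 7 of them members. Of the 53 fibropellin-named genes, 6 had a Swiss-Prot match to a sea urchin fibropellin, 12 matched another protein and 35 had no match. Those 6 were also the 6 fibropellin-named genes with the avidin domain. Of the 24 hyalin-named genes, 21 matched sea urchin hyalin.

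Total counts per library ran from 9252184 to 10902546 assigned reads. Of 16788 genes with enough reads to test, 1311 (7.81%) passed the edgeR quasi-likelihood test at a Benjamini-Hochberg adjusted p below 0.05, with 987 (5.88%) higher and 324 (1.93%) lower in secondary spines. Fold changes are log2 values of secondary minus primary spines, so negative values are lower in secondary spines. Libraries of the same animal deviated together, so a fit with the animal as a block was set beside the test. It called 4041 of the 16788 genes (24.1%), 12.4% higher and 11.7% lower.

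Most family reads came from few genes, and those genes were lower in secondary spines. The 78 genes summed to 9413, 8958, 10942 and 9230 CPM (TMM-scaled counts relative to library size) in primary spines of animals 1 to 4. They summed to 4873, 5078, 5570 and 4327 CPM in secondary spines. Each primary library lay above each secondary library, and the secondary library was the lower one within every animal. The means were 9636 ± 890.8 CPM in primary spines, against 4962 ± 514.4 CPM in secondary ones (SD, n = 4 each), 1.94-fold lower. The log2 difference within animals 1 to 4 was -0.95, -0.82, -0.97 and -1.09. The family took 0.824% to 1.07% of all counted reads in primary libraries and 0.459% to 0.577% in secondary libraries. In pooled spines, fewer cells of a type and less RNA per cell cannot be told apart.

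**Figure D1:**
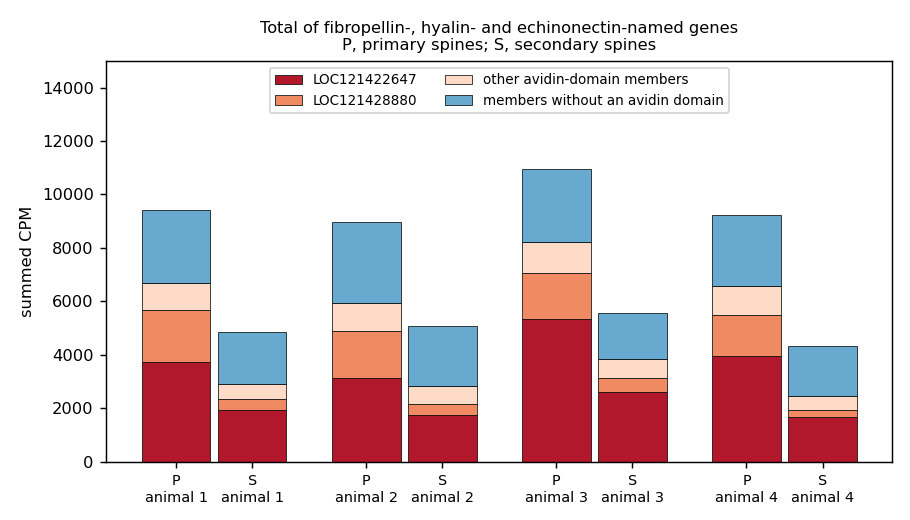
Summed CPM of the 78 fibropellin-, hyalin- and echinonectin-named genes in each library (linear axis from 0), with primary (P) and secondary (S) spines of each animal side by side and the bars divided by member. The primary bars reach 8958 to 10942 CPM and the secondary bars 4327 to 5570 CPM.

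Markers of ciliated cells moved in the opposite direction. Of 100 tested genes, 99 were above 0, and edgeR called 73 higher (73%, beside 5.88% of all genes) and 0 lower. The median log2 fold change was 1.64. The whole list summed to 1684 to 3164 CPM in primary spines, against 7584 to 9716 CPM in secondary ones. Of the 108 listed ciliary genes, 4 had no read. The part of this shift in the family's lower level was not tested.

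Of the 78 genes, 45 had enough reads to test, and 13 had fewer than 10 reads in all, 2 of them with no read in any library. The test called 7 lower and 1 higher in secondary spines, 15.6% and 2.22% of those tested, beside 1.93% and 5.88% over all genes. The other 37 did not pass. With the animal as a block, 17 were lower and 9 higher (37.8% and 20%, beside 11.7% and 12.4% of all genes). DESeq2, counted over all 78, called 10 lower and 6 higher, including LOC121408771, which edgeR did not test. Over all 19238 genes that DESeq2 tested, 3.73% were lower and 7.46% higher. The median log2 fold change of the 45 was -0.51, beside -0.03 over all genes tested. Lower values in secondary spines in all 4 animals were found for 19 of the 45 (42.2%), beside 24.1% of all genes tested. Higher values in all 4 animals were found for 10 (22.2%), beside 21.5% of all genes tested. The 2 groups of libraries did not overlap for 10 lower and 6 higher genes, beside 5.69% and 9.47% of all genes.

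**Figure D2:**
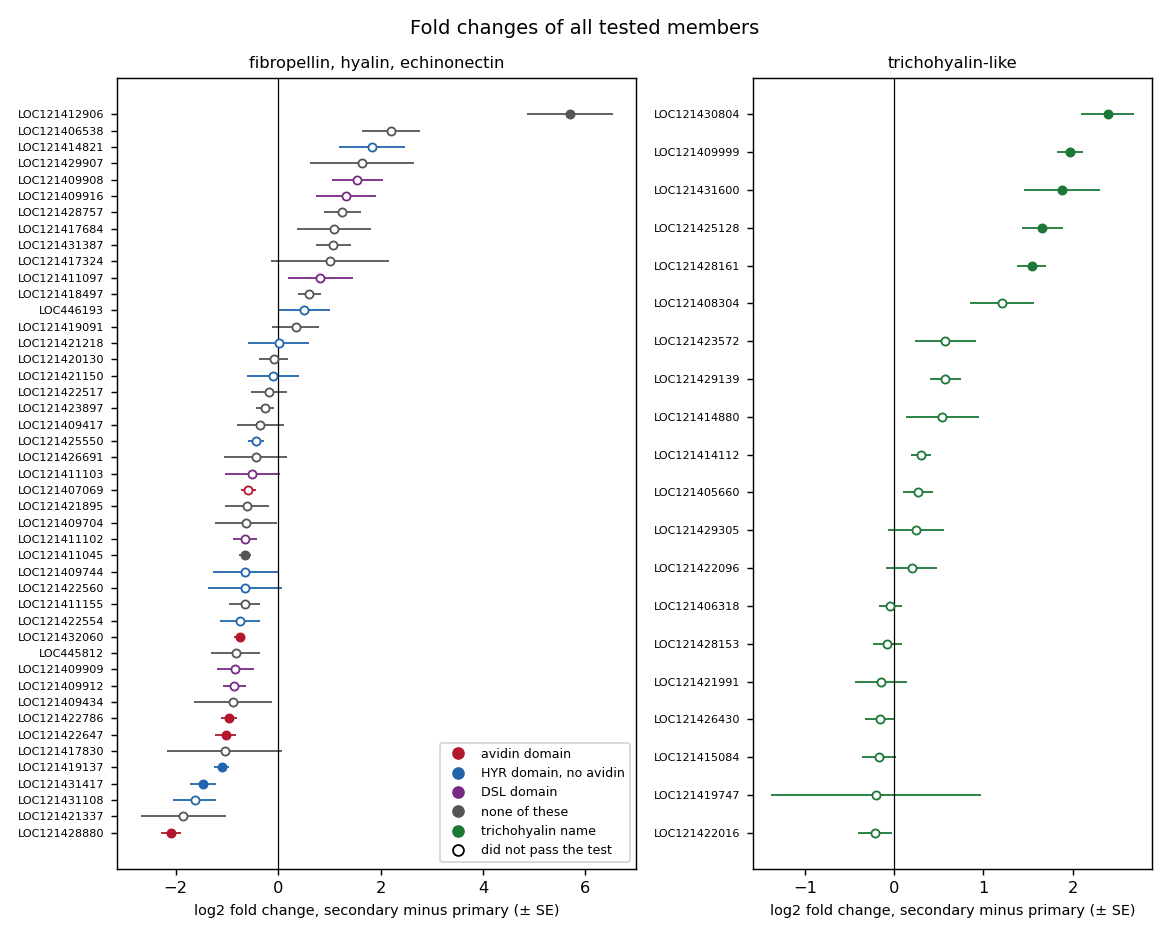
Log2 fold changes (secondary minus primary, horizontal axis) with standard errors for the 45 tested fibropellin-, hyalin- and echinonectin-named genes (left) and the 20 tested trichohyalin-like genes (right), each gene on its own line. Filled points passed the edgeR test, 7 lower and 1 higher on the left and 5 higher on the right, and colours give the listed domain.

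The avidin-domain genes held the largest part of the family's reads and of its difference. They were the 6 fibropellin-named genes above and 1 hyalin-like gene, LOC121432060, which was matched to hyalin. Of the 7, 5 were tested and 4 were called lower (80%, beside 1.93% of all genes). All 5 were below 0, with no overlap between the groups, beside 5.69% of all genes lower without overlap. Both the blocked fit and DESeq2 called all 5 lower, beside 11.7% and 3.73% of all genes. Of the 6 fibropellin-named ones, 4 were tested and 3 called lower (75%). The 7 avidin-domain genes summed to 6852 ± 959.5 CPM in primary spines, against 3012 ± 588.8 CPM in secondary ones (SD, n = 4 each), 2.27-fold lower. The 71 genes without the domain summed to 2784 ± 148.3 and 1950 ± 223.5 CPM, 1.43-fold lower.

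LOC121422647, a fibropellin-1-like gene at chromosome 10, 19062597 to 19124307, was the most abundant member and lists avidin, EGF and CUB domains. Its level was 3727, 3141, 5336 and 3955 CPM in primary spines of animals 1 to 4 and 1950, 1752, 2608 and 1656 CPM in secondary spines. The groups did not overlap, and animal 3 was highest in both kinds of spine. The level fell with a log2 fold change of -1.02 ± 0.20 (SE, edgeR adjusted p = 0.0179). In the unblocked test, the call was lost when secondary library 1, 2 or 4 was left out, with edgeR adjusted p up to 0.0606. It held in the other 5 fits. The blocked fit with all libraries gave -1.02 ± 0.12 (SE, edgeR adjusted p = 0.00124). This gene made up 34.5% to 48.8% of the family total over all 8 libraries.

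LOC121428880, a fibropellin-1-like gene at chromosome 15, 25458378 to 25477580, lists avidin and EGF domains and was matched to fibropellin-3. It had 1940, 1766, 1711 and 1523 CPM in primary spines and 390.5, 426.2, 527.8 and 285.8 CPM in secondary spines. The lowest primary library was well above the highest secondary library. It fell by 2.09 on the log2 scale (SE 0.19, edgeR adjusted p = 0.00107), a 4.26-fold lower mean CPM. Its share of the family total was 15.6% to 20.6% in primary libraries, against 6.6% to 9.48% in secondary ones, the groups again apart.

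LOC121422786, another fibropellin-1-like gene with avidin, EGF and CUB domains, lies on chromosome 10 at 18690614 to 18740153. Its level was 512.9, 519.7, 605.5 and 564.2 CPM in primary spines, against 281.3, 291.8, 350.9 and 207.7 CPM in secondary ones. The groups were apart, and animal 3 was again the highest in each. It fell with a log2 fold change of -0.96 ± 0.16 (SE, edgeR adjusted p = 0.00825).

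LOC121432060, named hyalin-like, combines HYR, EGF and avidin domains and lies on chromosome 18 at 5498781 to 5523710. It had 288.4, 297.1, 317.1 and 278.3 CPM in primary spines, against 166.9, 192.9, 188.6 and 153.4 CPM in secondary ones. The libraries within each kind of spine were close together and the 2 kinds did not overlap. It fell with a log2 fold change of -0.75 ± 0.11 (SE, edgeR adjusted p = 0.00473).

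LOC121407069, the most abundant fibropellin-3-like gene, lies on chromosome 2 at 2985299 to 2991168 and lists the avidin domain without EGF repeats. It had 209.9, 232.2, 240.0 and 241.6 CPM in primary spines, against 111.0, 167.7, 173.0 and 166.0 CPM in secondary ones. The groups did not overlap, and secondary library 1 stood below the other secondary libraries. Its log2 fold change was -0.58 ± 0.15 (SE, edgeR adjusted p = 0.0577), short of the threshold, and the blocked fit called it lower (adjusted p = 0.00543).

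The remaining avidin-domain members had few assigned reads. LOC121423180, named fibropellin-1, had 6 reads in all libraries together, and LOC121429668, named fibropellin-3, had 18. Few reads were thus assigned to the fibropellin genes with the unqualified names. How reads shared with similar members were assigned is not known, so their transcript levels remain uncertain. Outside the family, the avidin-domain gene LOC121422208, uncharacterized, also fell, from 1393 ± 291.6 to 361.3 ± 136.8 FPKM (SD, n = 4 each), with a log2 fold change of -1.94 ± 0.29 (SE, edgeR adjusted p = 0.00495).

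**Figure D3:**
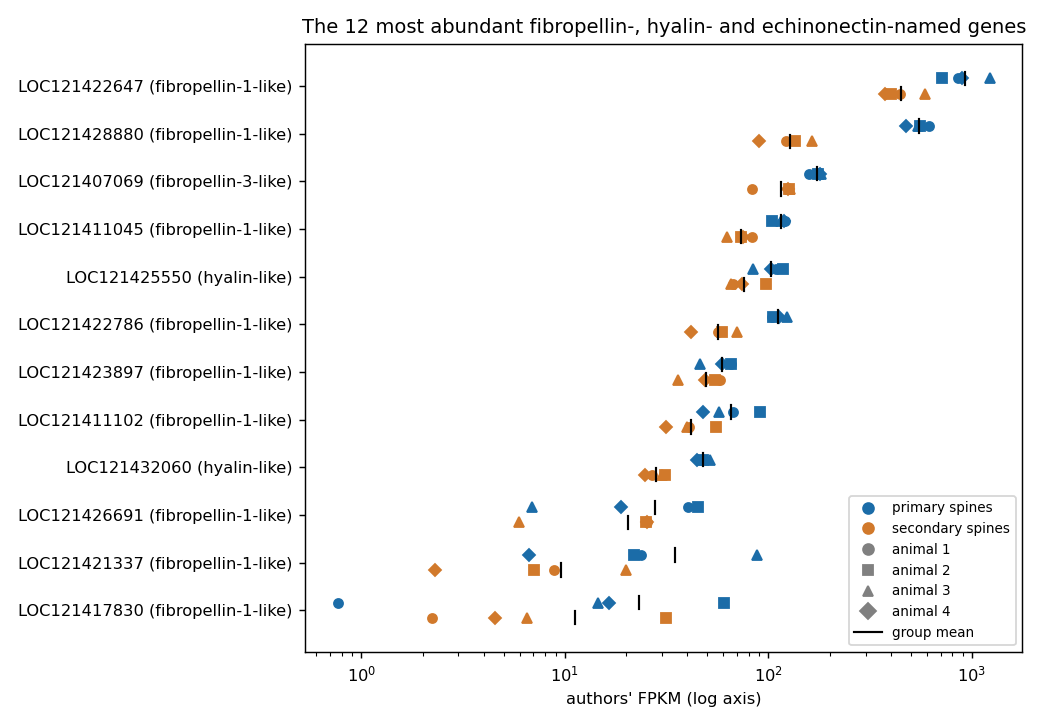
FPKM as deposited by the authors (log axis) for the 12 most abundant fibropellin-, hyalin- and echinonectin-named genes in each of the 8 libraries, with the animal given by the symbol and the group mean by a vertical line. LOC121422647 and LOC121428880 lead in primary spines with means of 918.9 and 547.3 FPKM, and the secondary means are lower for each of the 12 genes.

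Levels between genes are compared per length, in the FPKM of the authors. Over all 8 libraries, 3 of the 78 genes averaged at least 100 FPKM, 13 at least 10 FPKM, and 39 were below 1 FPKM. Fold changes were lower among the more abundant members. All 10 of the most abundant members were below 0, and edgeR called 5 of them lower (50%, beside 1.93% of all genes). Of the 20 most abundant, 19 were below 0 and 7 called lower (35%). Among the other 25 tested members, 11 were below 0 and 14 above. There edgeR called 1 higher (4%, beside 5.88% of all genes) and 0 lower. In that set 6 higher and 2 lower genes had an unadjusted p below 0.05. The blocked fit called 8 of the 25 higher (32%, beside 12.4% of all genes) and 3 lower (12%, beside 11.7%). DESeq2 called 5 higher and 1 lower, beside 7.46% and 3.73% of all genes. Spearman's rho between mean FPKM and fold change was -0.60 across the 45 genes and -0.29 across all genes tested, as a description, since genes of the same libraries are not independent.

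**Figure D4:**
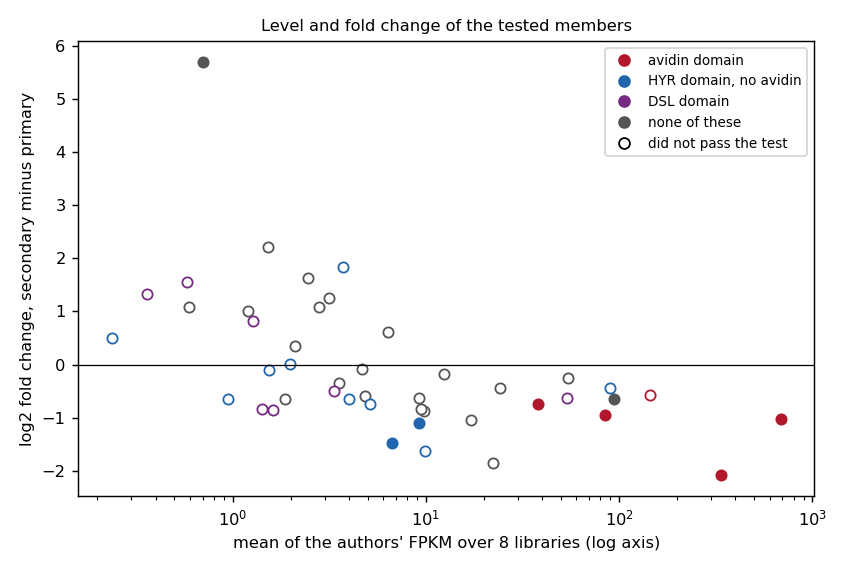
Mean FPKM of the authors over the 8 libraries (log axis) against the log2 fold change, secondary minus primary, of the 45 tested members, coloured by listed domain and filled where the edgeR test called them. The avidin-domain genes lie at the right and below 0, and the points above 0 lie below 10 FPKM.

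Among fibropellin-named genes without the avidin domain, 28 of 47 were tested, with 1 called higher and 1 lower (7.14%, beside 7.81% of all genes), and the median log2 fold change was -0.22. The blocked fit called 8 higher and 7 lower (53.6%, beside 24.1% of all genes). EGF repeats, listed for most of them, are a module found in many secreted and membrane proteins.

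LOC121411045, on chromosome 3 at 41459440 to 41516127, was the called gene of this group that was lower. Its level was 894.2, 765.4, 849.2 and 893.1 CPM in primary spines, against 616.6, 542.4, 469.1 and 553.9 CPM in secondary ones, with no overlap. It fell with a log2 fold change of -0.64 ± 0.12 (SE, edgeR adjusted p = 0.0109), and the call was lost when libraries were scaled by total count alone (adjusted p = 0.0506). It made up 7.76% to 9.68% of the family total in primary libraries and 8.42% to 12.8% in secondary libraries.

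LOC121412906, on chromosome 4 at 24693499 to 24703043, was the called gene that was higher. It had 0, 0, 0 and 1 reads in primary and 22, 14, 20 and 28 reads in secondary libraries. Nearly all of its reads thus came from secondary spines, in each of the 4 animals, at a low level of 1.39 ± 0.30 FPKM (SD, n = 4). The pooled read count relative to the pooled TMM-scaled library size was 77.1 times higher in secondary spines, for which counting error alone gives 13.5 to 3080 at 95% confidence (edgeR adjusted p = 0.00457).

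LOC121421337, on chromosome 9 at 10437502 to 10515751, differed widely between animals. It had 108.1, 99.99, 399.1 and 30.88 CPM in primary spines of animals 1 to 4 and 40.91, 32.54, 93.06 and 10.63 CPM in secondary spines. Animal 3 was the highest and animal 4 the lowest in both, and the groups overlapped. Its log2 fold change was -1.85 ± 0.84 (SE, edgeR adjusted p = 0.276). Within animals the difference was close to the same in each, and the blocked fit gave -1.67 ± 0.13 (SE, adjusted p = 0.000278).

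LOC121406538, on chromosome 1 at 73288345 to 73302605, had 0.538, 0.698, 1.16 and 1.28 CPM in primary spines, against 6.98, 5.70, 1.49 and 2.99 CPM in secondary ones. The secondary libraries were all above the primary ones, with animal 3 closest. The log2 fold change was 2.21 ± 0.57 (SE, edgeR adjusted p = 0.0521), and the blocked fit called it higher (adjusted p = 0.0339). LOC121423897, on chromosome 11 at 18283990 to 18325838, was among the more abundant members, overlaps another gene and was not called in either fit, with 59.1 ± 9.1 FPKM in primary and 49.3 ± 9.8 FPKM in secondary spines (SD, n = 4 each).

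Neighbouring members did not all move one way. Of the 78 genes, 32 lay in 12 neighbourhoods in which members were less than 1 Mb apart. On chromosome 10, 4 members lay among 12 genes within 0.464 Mb, between 18690614 and 19155066. They were LOC121422786 and LOC121422647, both called lower, LOC121423180 with 6 reads, and LOC121422517, whose log2 fold change was -0.18 ± 0.35 (SE, edgeR adjusted p = 0.895). LOC121422517 was matched in the deposited table to a yeast transposon protein, so its place in the family rests on its name and EGF repeats.

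All 7 DSL-domain members lay in a pair of neighbourhoods on chromosome 3. The edgeR test called 0 of the 7, with 1 higher and 3 lower at an unadjusted p below 0.05. DESeq2 called 1 in each direction, beside 7.46% of all genes higher and 3.73% lower. The blocked fit called 3 higher and 3 lower (42.9% each, beside 12.4% and 11.7% of all genes). Between 342574 and 740856, 4 of them lay among 9 genes. There LOC121409908 had a blocked log2 fold change of 1.61 ± 0.29 and LOC121409916 of 1.42 ± 0.44 (SE), both called higher by the blocked fit. Their neighbours LOC121409909, at -0.79 ± 0.17, and LOC121409912, at -0.88 ± 0.17 (SE), were called lower by the blocked fit.

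The other 3 DSL members lay between 43395717 and 43617952. LOC121411102, the most abundant, had 264.7, 358.9, 225.0 and 190.5 CPM in primary spines, against 162.9, 218.9, 160.1 and 125.0 CPM in secondary ones. Animal 2 was highest and animal 4 lowest in both, and the groups overlapped. The blocked log2 fold change was -0.63 ± 0.08 (SE, edgeR adjusted p = 0.00199). Beside it, LOC121411097 was called higher by the blocked fit at 0.86 ± 0.19 (SE), and LOC121411103 was not called, at -0.50 ± 0.16 (SE).

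The hyalin-named genes were lower in secondary spines in sum, at 1074 ± 81.9 CPM in primary spines, against 733.3 ± 107.7 CPM in secondary ones (SD, n = 4 each), 1.46-fold. Most of that sum came from LOC121425550 (629.8 CPM in primary spines, 465.7 in secondary), not called by edgeR, and LOC121432060 (295.2 and 175.4). Of 24 genes, 12 were tested, and edgeR called 3 lower (25%, beside 1.93% of all genes) and 0 higher. LOC121432060, counted above with the avidin-domain genes, was 1 of the 3. At an unadjusted p below 0.05, 5 were lower and 1 higher. DESeq2 called 4 lower and 0 higher, beside 3.73% and 7.46% of all genes. The blocked fit called 5 lower (41.7%, beside 11.7% of all genes) and 1 higher (8.33%, beside 12.4%). The median log2 fold change was -0.64, beside -0.03 over all genes tested. Outside the family, 47 genes with the HYR domain were tested, with 2 called lower (4.26%) and 0 higher. Their median was -0.05.

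LOC121419137, on chromosome 7 at 35795704 to 35820201, had 62.49, 50.44, 45.56 and 64.21 CPM in primary spines, against 27.54, 24.41, 25.62 and 26.09 CPM in secondary ones. Its secondary libraries were nearly equal and all below the primary ones. It fell with a log2 fold change of -1.10 ± 0.15 (SE, edgeR adjusted p = 0.00327).

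LOC121431417, on chromosome 1 at 62796487 to 62816239, had 16.24, 11.56, 11.71 and 13.25 CPM in primary spines, against 6.30, 3.46, 5.07 and 4.13 CPM in secondary ones. The groups did not overlap, at a low level. It fell with a log2 fold change of -1.47 ± 0.25 (SE, edgeR adjusted p = 0.00881).

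LOC121425550, the most abundant hyalin-like gene, lies on chromosome 1 at 83454359 to 83489278. It had 659.1, 714.6, 510.0 and 635.4 CPM in primary spines, against 412.2, 590.0, 406.5 and 454.3 CPM in secondary ones. Animal 2 was highest in both, and the groups overlapped. The log2 fold change was -0.44 ± 0.16 (SE, edgeR adjusted p = 0.166), and the blocked fit called it lower (adjusted p = 0.0199).

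LOC121431108, on chromosome 1 at 57325603 to 57345611, had 16.78, 23.33, 39.02 and 19.87 CPM in primary spines, against 5.53, 6, 15 and 5.53 CPM in secondary ones. Animal 3 was highest in both and the groups did not overlap. The log2 fold change was -1.63 ± 0.42 (SE, edgeR adjusted p = 0.0521), and the blocked fit called it lower at -1.68 ± 0.15 (SE, adjusted p = 0.000345).

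LOC121414821, on chromosome 5 at 4105951 to 4110682, went the other way. It had 3.98, 2.09, 1.06 and 1.496 CPM in primary spines, against 8.73, 14.64, 5.56 and 1.93 CPM in secondary ones. Each secondary library was above the primary library of the same animal, but the groups overlapped. The log2 fold change was 1.83 ± 0.65 (SE, edgeR adjusted p = 0.149), and the blocked fit called it higher (adjusted p = 0.0212). The gene named hyalin without a qualifier, LOC446193 on chromosome 9 at 36319592 to 36403844, was at 0.197 ± 0.116 FPKM in primary and 0.278 ± 0.136 FPKM in secondary spines (SD, n = 4 each) and was not called in either fit.

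Echinonectin, LOC445812 on chromosome 12 at 31825941 to 31870610, had 26.35, 56.42, 32.06 and 80.55 CPM in primary spines, against 11.63, 39.76, 19.27 and 39.18 CPM in secondary ones. The secondary library was the lower one within every animal, but animals differed by more than the kinds of spine and the groups overlapped. The log2 fold change was -0.83 ± 0.48 (SE, edgeR adjusted p = 0.429) without the block and -0.86 ± 0.13 (SE, adjusted p = 0.00368) with it. The deposited annotation places it over another gene, and the labels do not say whether counting used strand, so reads of the overlapping genes cannot be told apart.

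Some members had nearly all of their reads in 1 animal. LOC121408767, fibropellin-1-like on chromosome 2 at 68167809 to 68189358, had 262 reads, all in animal 1, at 10.97 CPM in primary spines, against 15.51 CPM in secondary ones. The hyalin-like LOC121422425, on chromosome 10 at 12059485 to 12097739, had 264 of its 276 reads (95.7%) in animal 2, at 10.97 CPM in primary spines, against 15.66 CPM in secondary ones. Neither passed the filter for testing, and each was present in both kinds of spine of its animal. Among the 56 members with at least 30 reads, 2 (3.57%) had at least 90% of them in 1 animal, beside 335 of 19138 genes (1.75%) in the whole table.

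LOC121417830, fibropellin-1-like on chromosome 6 at 41405336 to 41412204, was at 0.861, 67.49, 16.24 and 18.59 CPM in primary spines, against 2.52, 35.19, 7.45 and 5.10 CPM in secondary ones. Animal 2 was highest and animal 1 lowest in both. Over the 45 tested members, the range between animals exceeded the difference between kinds of spine in 29 (64.4%), beside 80.7% of all genes tested, and in 0 of the 5 avidin-domain genes.

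**Figure D5:**
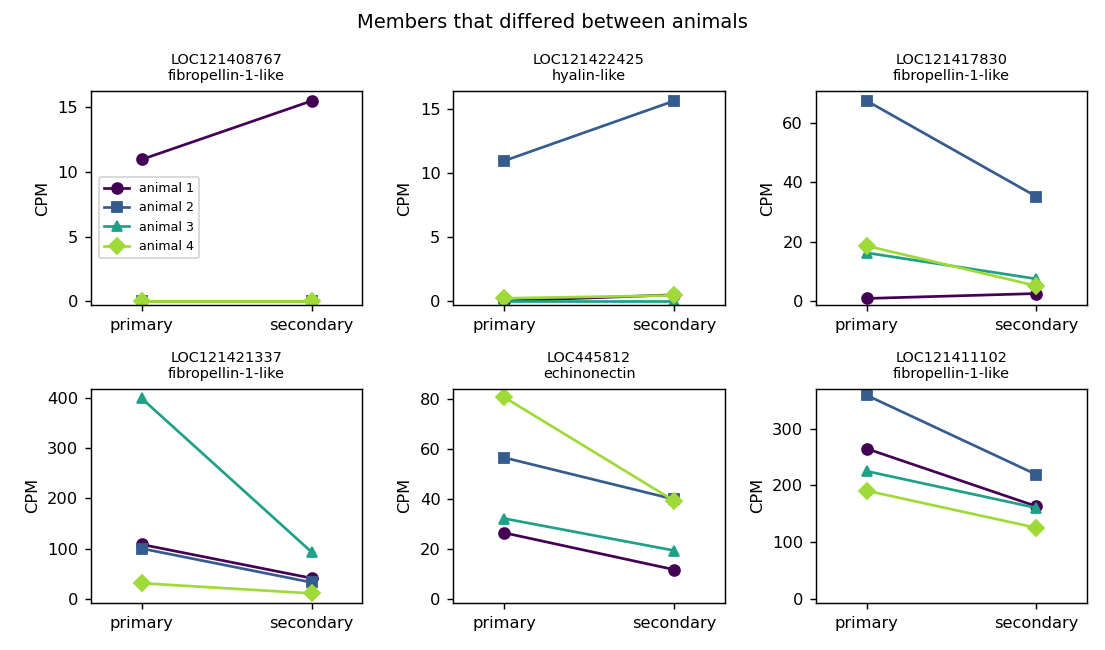
CPM (linear axes) in primary and secondary spines of each animal, joined by a line per animal, for 6 members with large differences between animals. LOC121408767 is above 0 in animal 1 alone, and echinonectin (LOC445812) and LOC121421337 are lower in the secondary spines of every animal.

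The trichohyalin-like genes that passed the test were higher in secondary spines. Of these 24 genes, 8 had a Swiss-Prot match, none of them to trichohyalin, and 16 had none. Of the 24, 20 were tested, and 5 (25%) were called higher, beside 5.88% of all genes, and 0 lower by edgeR, with 8 higher and 0 lower at an unadjusted p below 0.05. DESeq2 and the blocked fit each called 7 higher and 0 lower, beside 7.46% and 12.4% of all genes higher. Their median log2 fold change was 0.28, and they summed to 1006 ± 62.6 CPM in primary spines, against 1336 ± 57.1 CPM in secondary ones (SD, n = 4 each).

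LOC121409999, the most abundant of these called genes, lies on chromosome 3 at 3193387 to 3274036 and had 74.86, 98.99, 86.06 and 69.23 CPM in primary spines, against 284.1, 344.3, 302.8 and 356.3 CPM in secondary ones. The groups were far apart in every animal. It rose with a log2 fold change of 1.97 ± 0.15 (SE, edgeR adjusted p = 0.000786). The other called genes were LOC121430804 at 2.39 ± 0.30, LOC121425128 at 1.66 ± 0.23, LOC121428161 at 1.54 ± 0.16 and LOC121431600 at 1.88 ± 0.43 (log2 fold change and SE). The call of LOC121431600 held in 2 of the 8 fits that left out a library.

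With these genes included, the 102 genes of the name rule had 65 tested, 6 called higher and 7 lower. These calls were 20% of those tested, beside 7.81% of all genes.

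Genes that work beside the apical matrix were counted from lists of product names. Integrins, receptors that join cells to extracellular matrix, had 2 of 12 tested members called lower (16.7%, beside 1.93% of all genes) and 0 higher. Their median log2 fold change was -0.39, beside -0.03 over all genes tested. Integrin alpha-V-like LOC121426066 fell from 180.9 ± 9.7 to 101.7 ± 5.0 CPM (log2 fold change -0.83 ± 0.09, SE, edgeR adjusted p = 0.00185). Integrin beta-1-A-like LOC121426622 fell from 466.8 ± 19.0 to 326.0 ± 24.9 CPM (SD, n = 4 each), with an edgeR adjusted p of 0.0135. The blocked fit called 5 integrins lower (41.7%, beside 11.7% of all genes) and 0 higher.

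Enzymes that cross-link matrices and egg coats had 0 of 14 tested members called by edgeR and 0 by DESeq2. At an unadjusted p below 0.05, 2 were lower and 0 higher. The blocked fit called 6 lower (42.9%, beside 11.7% of all genes) and 0 higher. The egg coat list, with ovoperoxidase and proteoliaisin, proteins of the fertilization envelope, had 4 genes, 0 of them with enough reads to test, which together reached 0.0997 to 0.527 CPM in primary and 0.203 to 1.32 CPM in secondary libraries. Astacin-type proteases had 1 of 3 tested members called lower (33.3%, beside 1.93% of all genes). This was the SpAN-like LOC121406098, which fell from 354.8 ± 67.6 to 15.5 ± 9.3 CPM (SD, n = 4 each, edgeR adjusted p = 0.00106).

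Apical polarity and junction proteins had 4 of 41 tested members called higher and 2 lower (9.76% and 4.88%, beside 5.88% and 1.93% of all genes). The blocked fit called 9 in each direction (22% each, beside 12.4% of all genes higher and 11.7% lower). Protocadherin-15-like LOC121431760, a cadherin-family adhesion protein, rose with a log2 fold change of 1.05 ± 0.16 (SE, edgeR adjusted p = 0.00553). Tetraspanin-11-like LOC121422061, a member of a family of membrane-spanning proteins, fell with a log2 fold change of -0.84 ± 0.14 (SE, edgeR adjusted p = 0.00797).

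Markers of other cell types of the spine had fewer calls than the ciliary list. Muscle markers had 2 of 11 tested genes called higher (18.2%, beside 5.88% of all genes). The blocked fit called 3 higher and 1 lower (27.3% and 9.09%, beside 12.4% and 11.7% of all genes). Muscle markers summed to 1256 to 1769 CPM in primary libraries and 1141 to 1687 CPM in secondary ones. Most of that sum came from tropomyosin-like LOC121415027 (923.9 CPM in primary spines, 889.3 in secondary) and tropomyosin-2-like LOC121415055 (486.7 and 318.1). The called genes were at lower levels, paramyosin-like LOC121426309 at 9.44 and 31.16 CPM and troponin T-like LOC121421391 at 0.37 and 18.99 CPM. Neuronal markers had 2 higher and 2 lower of 22 (9.09% each, beside 5.88% and 1.93% of all genes). In the blocked fit 4 were higher and 5 lower (18.2% and 22.7%, beside 12.4% and 11.7%). Neuronal markers summed to 2735 to 3336 and 1961 to 2461 CPM. Coelomocyte markers had 1 higher and 2 lower of 39 (2.56% and 5.13%). In the blocked fit 3 were higher and 11 lower (7.69% and 28.2%, beside 12.4% and 11.7% of all genes). Coelomocyte markers summed to 3501 to 4683 and 3118 to 4939 CPM. Pigment cell markers had 0 of 9 called by edgeR, DESeq2 or at an unadjusted p below 0.05, and summed to 74.2 to 162.5 and 79.5 to 147.3 CPM. Skeletogenic markers, which mark the cells that lay down calcite, had 0 of 19 called by edgeR or DESeq2, with 1 higher at an unadjusted p below 0.05, and summed to 656.3 to 1654 and 760.1 to 2061 CPM. The part of these lists in the family's difference was not tested.

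How multiply aligned reads were counted is not known from the labels, so the division of reads among members that share a product name is uncertain. The family total does not depend on how reads are divided among members. It would change if shared reads were left out or given to genes outside the family. The p-values of the unblocked tests measure the spread between 4 animals per kind of spine, and those of the blocked fit the spread of the differences within animals.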

How the data were processed

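Messenger RNA of 4 primary and 4 secondary spine libraries was selected with poly-T beads, per the labels' protocols. HISAT2 2.0.5 and featureCounts were used, per the submitters' processing notes, with assembly 3.0 of the species named as reference. The deposited values are whole-number read counts per gene and FPKM of the authors, per the file headers, and the library constant of the deposited FPKM relative to the total count lay at 0.905 to 0.994 for primary and 1.06 to 1.08 for secondary libraries.

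Counts were tested with edgeR 4.0.16 (glmQLFit with robust estimation, TMM, filterByExpr) in R 4.3.3, with kind of spine as the sole term, 2-sided, over 16788 genes. CPM were computed here from the deposited counts. Each SE was derived as |log2 fold change| over sqrt(F). Alternatives were an animal block, DESeq2 1.42.0, RLE and total-count scaling, no filter, and leaving out each library. The script was tested on simulated data.

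The members and lists were chosen with earlier results of these data known, and list exclusions were added after reading gene names. Named were up to 12 called members by smallest p, LOC121428880, the 6 most abundant, the most abundant of each name class, 6 members called by the blocked fit alone with the largest changes, and up to 2 called genes per companion list. Other members, among them LOC121431600, LOC121423897, LOC121408767, LOC121422425, LOC121417830, LOC446193, LOC121422517 and part of the DSL genes, were chosen after their values were seen. So were LOC121408771 and the muscle and neuronal markers named.

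The design text takes both kinds of spine from the same animals, and deviations from group means had a Pearson r of 0.733 to 0.811 for libraries with the same number, against -0.318 to -0.200 for the rest. No library duplicated another of its group. All 26814 gene positions matched the reference table of the assembly. No sequences are shown.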

Additional observations from a re-analysis of the deposited data

Results flagged for a closer look

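Within groups of 4 libraries, 82 sets of values were examined for a library far from the other 3, and 11 were flagged. The cutoff flags about 1 in 20 groups of normally distributed values, and that rate does not apply here. Some sets were of genes chosen after their values were seen, and some held mostly zeros or few reads. The fibropellin-1-like LOC121408767 stood out in animal 1, with 10.97 CPM in its primary spines, against 15.51 CPM in its secondary ones, with the other libraries at 0. The hyalin-like LOC121422425 stood out in animal 2, with 10.97 CPM in its primary spines, against 15.66 CPM in its secondary ones. LOC121417830 was high in the secondary spines of animal 2, at 35.19 CPM, and the hyalin-named genes together were high in the same library, at 894.7 CPM. LOC121431108 was high in the secondary spines of animal 3, at 15 CPM, and hyalin LOC446193 in those of animal 4, at 9.31 CPM. LOC121407069 was low in the secondary spines of animal 1, at 111.0 CPM. The trichohyalin-like LOC121425128 was high in the primary spines of animal 2, at 18.14 CPM. LOC121412906 had 0.107 CPM in primary library 4, from its single primary read.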

How the results depend on the processing

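With the animal as a replicate block, the pairing raised the calls from 1311 to 4041 over all genes and from 13 to 33 over the 102 members. Over the 78 members without trichohyalin names the block moved the calls from 1 to 9 higher and from 7 to 17 lower. With the block, leaving out animals 1 to 4 in turn gave 2379, 2608, 2864 and 3221 calls over all genes and 23, 28, 30 and 28 members, and of the 78, 4, 5, 7 and 7 higher and 14, 17, 17 and 16 lower. DESeq2 called 2154 genes, 23 members and 6 of the 78 higher.

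Leaving out 1 library without the block gave 876 to 1125 genes, 11 to 14 members, 1 to 2 higher (2 without secondary library 3) and 6 to 8 lower. The log2 family total of -0.96 ranged from -1.02 to -0.89 without 1 library and was -0.80 with scaling by total count, which shifts the median of all genes to 0.14 and called 2 of the 78 higher. Members that changed sign were uncalled in those fits. Leaving out 1 library, LOC121417830 was lowest at -2.36, when secondary library 2 was absent, and highest at 0.091, when primary library 2 was absent. LOC121422517 lay between -0.43, with primary library 1 absent, and 0.016, with primary library 3 absent, was at 0.0099 with primary library 4 absent, and in the blocked fit was at 0.19 without animal 3 and 0.12 without animal 4. Fewer samples entered those fits, and the cause of the other changes was not tested. Low read counts limit the 33 untested members.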
